A study of Rattus norvegicus with 21 samples.

Results

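The 10 endoplasmic reticulum (ER) genes of the unfolded protein response (UPR) were followed in primary rat astrocytes after knockdown of TDP-43: Hspa5, Hsp90b1, Calr, Pdia3, Pdia4, Pdia6, Dnajb9, Dnajc3, Xbp1 and Herpud1. They were chosen by symbol, and all 10 were found among the 17311 gene rows of the poly(A) count table. The astrocytes were grown from neonatal pups of Sprague-Dawley rats and transfected with siRNA by Lipofectamine. Each of 3 groups held 3 poly(A) RNA-seq libraries: cells given a scrambled control siRNA, cells given siRNA against TDP-43, and cells given that siRNA together with ATP. No label states the dose or time of ATP, and there was no group with ATP but without knockdown. All knockdown libraries carry the same siRNA label and no rescue was used, so loss of TDP-43 and other effects of that siRNA cannot be told apart.

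The UPR is the programme by which cells answer unfolded protein in the ER. A trio of sensors in the ER membrane, IRE1 (Ern1), PERK (Eif2ak3) and ATF6, are held inactive by the chaperone BiP (Hspa5). When they are released, IRE1 splices the mRNA of Xbp1, ATF6 is cut to a transcription factor, and PERK lowers translation and raises ATF4. Their targets include the chaperones, the disulfide isomerases and the J-domain cochaperones studied here. Astrocytes secrete matrix and trophic proteins and depend on this folding capacity.

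TDP-43, encoded by Tardbp, is an RNA-binding protein that regulates splicing. Tardbp read 179, 158 and 172 CPM (counts scaled to a common library size) in scrambled replicates 1, 2 and 3. It read 29.6, 20.7 and 24.1 CPM after knockdown, and 24.1, 28.8 and 25.6 CPM with ATP added. The log2 fold change was −2.77 (edgeR quasi-likelihood test, adjusted p = 1.13e-09) and −2.69 (adjusted p = 1.59e-09). Tardbp was lower in every library labelled as knockdown than in any scrambled one.

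Counts on genes ran from 11485173 to 40286765 per library. CPM here are scaled by edgeR's TMM factors, so every change is relative to the bulk of genes in the same library. The labels do not say whether replicates came from separate animals or cultures, so the p-values speak to the spread among these libraries, which may be technical. Scrambled replicate 1, the library with the most counts, was the highest of its group for 9 of the 10 genes, against 37.6% of all tested genes. Knockdown replicate 3 and ATP replicate 2 were each the highest of their group for 7 of the 10, against 35.1% and 32.4% of all tested genes. Astrocyte markers were present in every library, with Gfap between 2004 and 2875 CPM, and Gjb6 at or under 0.414 CPM throughout. The summed CPM of 12 astrocyte markers was 6005 to 7325 with scrambled siRNA, 4457 to 5609 after knockdown and 5063 to 5840 with ATP. The summed CPM of 13 fibroblast, mural and endothelial markers, mostly Tagln, was 21739 to 23172, 5873 to 8424 and 6476 to 7061 in the same order, with Col1a2 and Cldn5 at 0 in every library. In bulk RNA, fewer cells of a type and less RNA per cell cannot be told apart, and the part of these markers in the results on the ER genes was not tested.

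RefSeq promoter windows (build GRCr8) were matched for 8 of the 10 genes, from 250 bases before to 50 bases after the gene start. They were searched on both strands for the ER stress response element (ERSE, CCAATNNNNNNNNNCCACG), which binds NF-Y together with ATF6 or XBP1 in human and mouse cells, and for ERSE-II (ATTGG, 1 base of any kind, then CCACG). ERSE was found in 5 of the 8 windows (62.5%), against 22 of 33469 rat promoters (0.0657%) and 17 of 9607 promoters of tested genes (0.177%). ERSE-II was found in 1 of 8, against 17 of 33469 (0.0508%) and 10 of 9607 (0.104%). The genes were chosen as UPR genes and ERSE is an element of that response, so these shares are a description and carry no test. The matches are shown so that the letters the genes share can be read beside their values below. None of the 5 genes with ERSE passed the edgeR test after knockdown (2, Hspa5 and Hsp90b1, had an unadjusted p under 0.05 and passed in DESeq2). Each is written 5′ to 3′ on the strand of the motif, with the fixed letters in capitals:
Hspa5, chr3:38452973-38452991, bases −43 to −25: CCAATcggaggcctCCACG
Hsp90b1, chr7:23012451-23012469, bases −176 to −158: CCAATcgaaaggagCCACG
Hsp90b1, chr7:23012347-23012365, reverse strand of the gene, bases −72 to −54: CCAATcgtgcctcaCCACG
Calr, chr19:40213135-40213153, reverse strand of the gene, bases −232 to −214: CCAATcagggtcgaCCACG
Dnajc3, chr15:102432534-102432552, bases −133 to −115: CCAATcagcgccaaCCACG
Xbp1, chr14:84604558-84604576, bases −65 to −47: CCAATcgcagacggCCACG
Herpud1 (ERSE-II), chr19:10614821-10614831, bases −124 to −114: ATTGGgCCACG
The windows of Pdia4 and Dnajb9 held neither motif. The UPRE core (GACGTGG), bound by XBP1, was in 0 of the 8 windows and in 2.32% of all promoters. Only these exact letters were searched, so other forms of the element were not counted. A CCAAT box (CCAAT), the letters that NF-Y reads and that also lie within ERSE and, in reverse, ERSE-II, was in 8 of 8 windows and in 37.5% of all promoters.

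The 250 bases before the start are given for 3 genes: Hspa5 and Hsp90b1, with 1 and 2 ERSE matches and neither called by edgeR after knockdown, and Dnajb9, which rose and had no ERSE match. They are written on the gene's strand, with ERSE letters in capitals (reverse matches read CGTGG and ATTGG):
Hspa5, chr3:38452766-38453015, plus strand: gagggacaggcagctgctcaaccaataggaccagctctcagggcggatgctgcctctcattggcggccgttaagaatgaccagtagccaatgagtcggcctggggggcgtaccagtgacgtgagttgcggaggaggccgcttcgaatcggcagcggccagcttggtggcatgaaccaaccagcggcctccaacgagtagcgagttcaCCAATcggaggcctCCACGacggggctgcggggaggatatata
Hsp90b1, chr7:23012294-23012543, minus strand: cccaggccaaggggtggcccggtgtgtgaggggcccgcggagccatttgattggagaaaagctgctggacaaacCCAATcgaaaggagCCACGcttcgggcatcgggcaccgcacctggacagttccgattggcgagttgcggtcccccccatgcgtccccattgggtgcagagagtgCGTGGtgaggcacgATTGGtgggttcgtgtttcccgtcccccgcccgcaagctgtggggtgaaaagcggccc
Dnajb9, chr6:67002052-67002301, minus strand: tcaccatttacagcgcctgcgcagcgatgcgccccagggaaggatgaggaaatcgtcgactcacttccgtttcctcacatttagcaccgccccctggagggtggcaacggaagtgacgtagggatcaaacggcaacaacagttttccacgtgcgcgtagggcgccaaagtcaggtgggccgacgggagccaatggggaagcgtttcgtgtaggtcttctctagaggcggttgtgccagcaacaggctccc
A match describes letters in this window only.

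**Figure D1:**
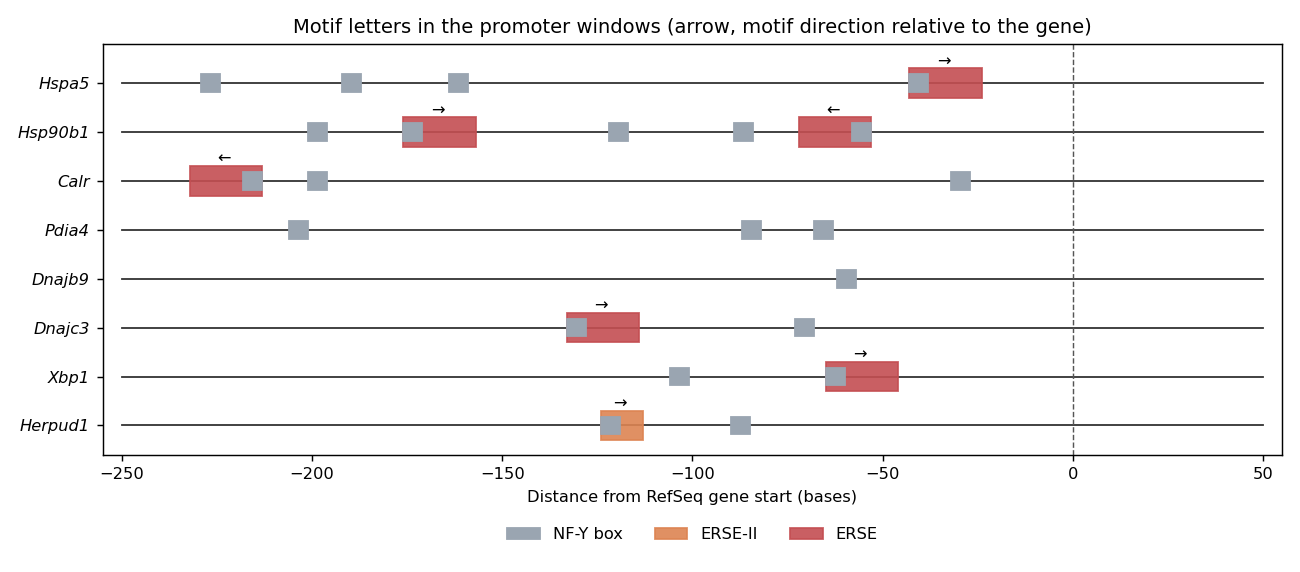
Positions of ERSE, ERSE-II and NF-Y box matches in the promoter windows of the 8 matched genes, in bases from the gene start (dashed line), with arrows for motif direction. ERSE marks lie in Hspa5, Hsp90b1 (a pair), Calr, Dnajc3 and Xbp1, and the ERSE-II mark in Herpud1.

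After TDP-43 knockdown the ER genes split. Of the disulfide isomerases Pdia6 fell by 34.3% and Pdia3 fell by 28.02%, and the BiP cochaperone Dnajb9 rose 1.35-fold. Hspa5 was higher and Hsp90b1, Pdia4 and Xbp1 were lower in all 3 knockdown libraries than in any scrambled library, but none of these passed the test. In all, 1 of the 10 rose and 2 fell at an edgeR adjusted p under 0.05, or 30% of them. Of all 12096 tested genes 34.3% were called, 16.2% higher and 18.2% lower, so the share of ER genes called was near the background. At an unadjusted p under 0.05 there were 6 of the 10, against 44.1% of all genes. The median log2 fold change of the 10 was −0.22, against 0.01 over all genes, and the median size of the change was 0.28 against 0.32.

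Hspa5 encodes BiP, the Hsp70 chaperone of the ER lumen. Its level was 795, 619 and 653 CPM in scrambled replicates 1, 2 and 3, and 817, 831 and 854 CPM after knockdown. The lowest knockdown library was above the highest scrambled one, by a narrow margin over scrambled replicate 1. This was a log2 fold change of 0.27 (SE 0.12, 95% interval 0.01 to 0.53), and the edgeR adjusted p of 0.0946 missed the threshold. Hspa5 passed without scrambled replicate 1 (log2 fold change 0.39, edgeR adjusted p = 0.00765), under total-count scaling (0.44, 0.0101) and in DESeq2 (0.27, 0.0313). Over all 17 alternative settings its adjusted p ran from 0.00765 to 0.216.

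Hsp90b1, the ER member of the Hsp90 family, read 1813, 1499 and 1388 CPM with scrambled siRNA and 1301, 1278 and 1304 CPM after knockdown. All knockdown values lay below all scrambled values, within a narrow band of their own. Its log2 fold change was −0.28 (SE 0.13, 95% interval −0.55 to −0.01, edgeR adjusted p = 0.105). Hsp90b1 passed without scrambled replicate 3 (log2 fold change −0.35, edgeR adjusted p = 0.0471) and in DESeq2 (adjusted p = 0.028), within a range of 0.028 to 0.531 over the alternatives.

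Calr encodes calreticulin, the soluble lectin chaperone that holds new glycoproteins and binds ER calcium. It read 2817, 1763 and 2239 CPM with scrambled siRNA and 1918, 1658 and 2029.7 CPM after knockdown. The groups overlapped, with scrambled replicate 2 inside the knockdown range. Calr's log2 fold change was −0.28 (SE 0.16, 95% interval −0.62 to 0.05, edgeR adjusted p = 0.18), and it was −0.44 (edgeR adjusted p = 0.0266) without that library. Over the alternatives the adjusted p of Calr ran from 0.0266 to 0.589.

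The isomerases gave the clearest decreases. Pdia6, a protein disulfide isomerase that associates with BiP, read 739.9, 722 and 613 CPM with scrambled siRNA. After knockdown it read 457, 427 and 479.6 CPM. No knockdown library came near the lowest scrambled one. Its log2 fold change was −0.61 (SE 0.11, 95% interval −0.85 to −0.36, edgeR adjusted p = 0.000809). Pdia6 passed under every 1 of the 17 alternatives, with adjusted p from 8.03e-08 to 0.00672.

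Pdia3 (ERp57), the isomerase that works with calreticulin and calnexin on glycoproteins, read 1452, 1156 and 1206 CPM with scrambled siRNA and 914, 886 and 946 CPM after knockdown. The groups did not overlap. The log2 fold change was −0.47 (SE 0.12, 95% interval −0.73 to −0.22, edgeR adjusted p = 0.007). Scaled by total counts alone it was −0.31 (edgeR adjusted p = 0.0583), the 1 alternative of 17 in which Pdia3 did not pass.

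Pdia4 (ERp72), an isomerase found in BiP complexes, read 561, 406 and 449 CPM with scrambled siRNA and 392, 357 and 385 CPM after knockdown. All knockdown values were lower, the closest pair being scrambled replicate 2 and knockdown replicate 1. The log2 fold change was −0.32 (SE 0.12, 95% interval −0.58 to −0.06), just over the threshold in edgeR (adjusted p = 0.0516) and under it in DESeq2 (adjusted p = 0.0206) and without scrambled replicate 2 (log2 fold change −0.42, edgeR adjusted p = 0.013). Over the alternatives the adjusted p of Pdia4 ran from 0.013 to 0.349.

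Dnajb9 and Dnajc3 are J-domain cochaperones, which stimulate BiP's ATPase. Dnajb9 (ERdj4), which delivers misfolded protein for degradation, was at 36.05, 27.99 and 35.6 CPM with scrambled siRNA. After knockdown it was at 40.0, 54.6 and 40.9 CPM. The groups did not overlap, and knockdown replicate 2 was well above the other 2. The log2 fold change was 0.43 (SE 0.14, 95% interval 0.13 to 0.73, edgeR adjusted p = 0.0259). That call was lost without knockdown replicate 2 (log2 fold change 0.28, edgeR adjusted p = 0.139) and without scrambled replicate 2 (0.33, adjusted p = 0.0877), and when only the compared libraries were fitted (0.42, adjusted p = 0.0576). Over the alternatives the adjusted p ran from 0.00322 to 0.139.

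Dnajc3 (p58IPK), which binds unfolded protein for BiP and inhibits PERK, read 64.0, 88.2 and 73.4 CPM with scrambled siRNA and 81.8, 78.3 and 87.2 CPM after knockdown. Scrambled replicate 2 was the highest of these 6 values. For Dnajc3 the log2 fold change was 0.14 (SE 0.12, 95% interval −0.11 to 0.39, edgeR adjusted p = 0.384). Under total-count scaling Dnajc3 passed (0.31, edgeR adjusted p = 0.0443), and its adjusted p over the alternatives ran up to 0.831.

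Xbp1, the transcription factor that IRE1 activates by splicing, read 129.6, 114 and 117 CPM with scrambled siRNA and 113, 101 and 108 CPM after knockdown. The groups did not overlap, by a narrow margin. Xbp1 had a log2 fold change of −0.17 (SE 0.10, 95% interval −0.37 to 0.04, edgeR adjusted p = 0.191), and it was 0.00 under total-count scaling. Gene counts do not separate spliced from unspliced Xbp1 mRNA.

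Herpud1, which helps assemble the ubiquitin ligase complex of ER-associated degradation, read 56.9, 29.7 and 46.3 CPM with scrambled siRNA and 49.7, 47.5 and 57.2 CPM after knockdown. The scrambled values spread the most of the 10 genes (coefficient of variation 30.8%) and enclosed most of the knockdown values. The log2 fold change was 0.20 (SE 0.17, 95% interval −0.16 to 0.56, edgeR adjusted p = 0.383). It was 0.43 without scrambled replicate 1 (edgeR adjusted p = 0.0369) and −0.01 without scrambled replicate 2 (edgeR adjusted p = 0.974), the ends of its range over the alternatives.

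**Figure D2:**
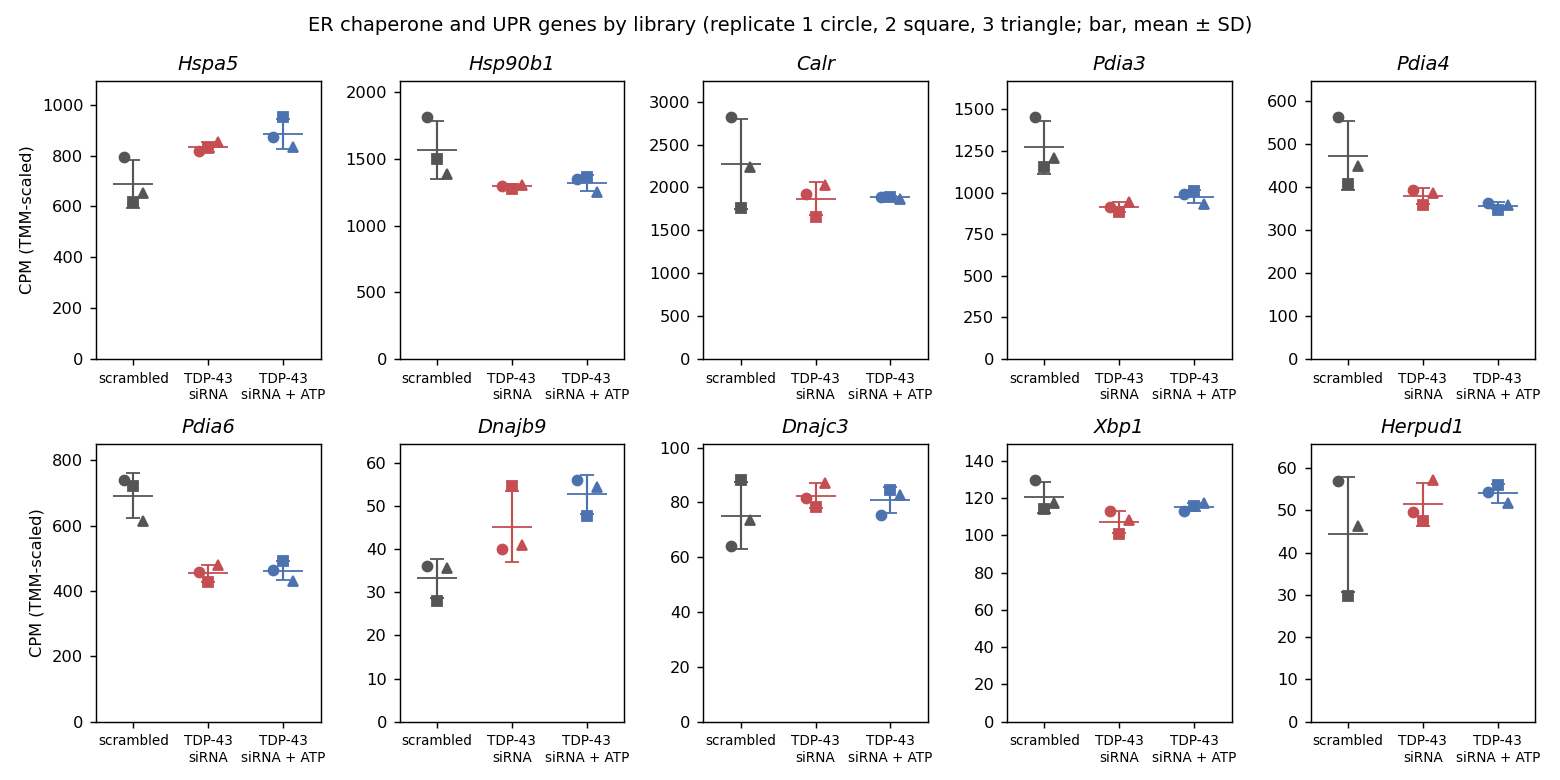
TMM-scaled CPM of each of the 10 ER genes in every library (points), with group means and SD, for scrambled siRNA, knockdown, and knockdown with ATP. Pdia6 and Pdia3 are lower in all knockdown libraries, and Dnajb9 is higher.

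In all, 2 genes were higher and 5 lower in every knockdown library than in every scrambled one, while 3 overlapped. Over all tested genes 20.7% lay wholly higher and 20.9% wholly lower, 41.6% in all. Scaling by total counts moved the median log2 fold change of all genes to 0.18, and then 3 of the 10 rose and 1 fell, in place of 1 and 2. The 1 that fell was Pdia6. Without scrambled replicate 1, 3 rose and 2 fell. Without scrambled replicate 2, 0 rose and 4 fell, without scrambled replicate 3, 1 rose and 3 fell, and without knockdown replicate 2, 0 rose and 2 fell.

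The counts of 1 gene per count of another in the same library do not depend on scaling. They are given as a description, since the choice of Hspa5 as the common numerator was made after the values were seen. There were 0.548, 0.536 and 0.541 Hspa5 counts per Pdia3 count in the scrambled libraries, and 0.893, 0.938 and 0.903 after knockdown. With ATP the ratio was 0.883, 0.943 and 0.895. The ratio was close to constant within each group although the scrambled libraries differed in both genes.

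Hspa5 counts per Pdia6 count were 0.999 ± 0.122 (SD, n = 3) with scrambled siRNA, 1.84 ± 0.0953 after knockdown and 1.92 ± 0.0305 with ATP. For Hsp90b1 as the denominator the ratio was 0.441 ± 0.0286, 0.644 ± 0.0146 and 0.670 ± 0.0257. Of the 9 ratios, 6 were higher in every knockdown library than in every scrambled one, with or without ATP: those to Hsp90b1, Calr, Pdia3, Pdia4, Pdia6 and Xbp1. Over all 12095 other tested genes the Hspa5 ratio was wholly higher for 36.7% after knockdown, for 44.6% with ATP and for 33.1% in both. The ratios to Dnajb9, Dnajc3 and Herpud1 overlapped, and Hspa5 per Herpud1 count averaged 16.3 ± 3.92, 16.3 ± 1.29 and 16.4 ± 0.501. Counts of Hspa5 were higher relative to the isomerases, Hsp90b1, Calr and Xbp1 in all 6 knockdown libraries, and their mean relative to Herpud1 was near that of the scrambled libraries.

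**Figure D3:**
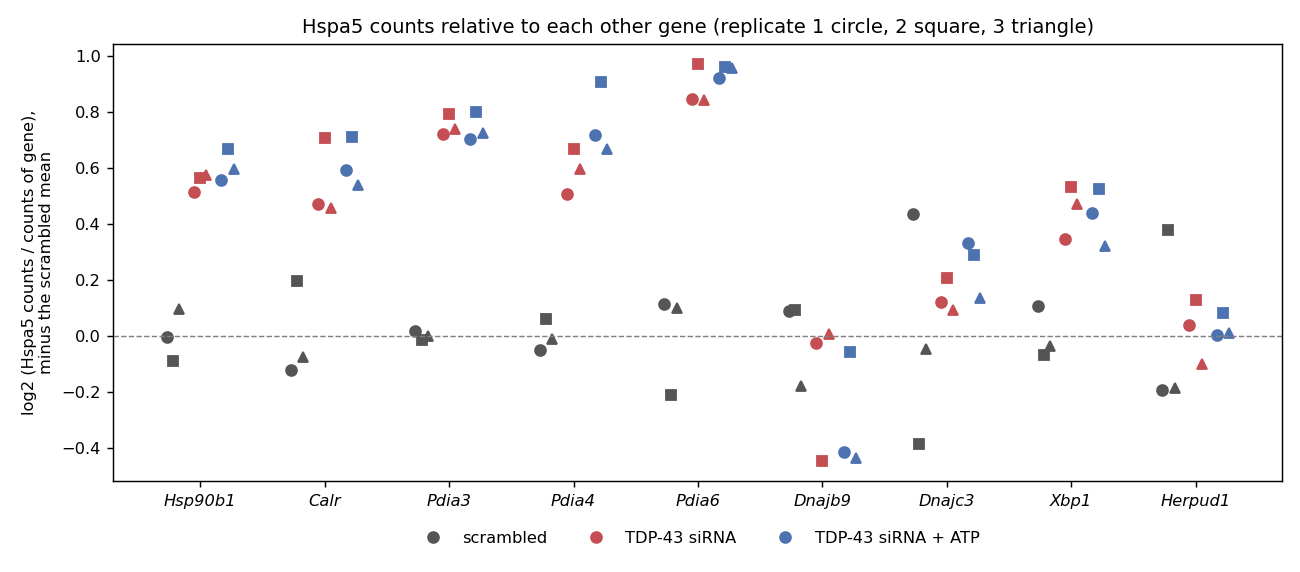
Hspa5 counts per count of each other ER gene in every library, relative to the mean of the scrambled libraries, on a log2 axis. The ratios to Pdia3 and Pdia6 lie apart between scrambled and knockdown libraries, while those to Herpud1 overlap.

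Across the 9 libraries the log2 CPM of Pdia3 tracked that of Hsp90b1 (Pearson's r = 0.93), Pdia6 (0.93) and Pdia4 (0.90), and Calr tracked Pdia4 (0.90). Hspa5 tracked Herpud1 (0.81) and Dnajb9 (0.78), and ran opposite to Pdia6 (−0.68), as did Dnajb9 (−0.85). These correlations describe the same 9 libraries, share their 3 groups and scaling, and carry no test.

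With ATP added to the knockdown, 5 of the 10 genes differed from scrambled siRNA. Hspa5 and Dnajb9 rose, and Pdia3, Pdia4 and Pdia6 fell. This comparison uses the same scrambled libraries as the one before, so the 2 are not independent. Of all tested genes 37.4% were called, 17.4% higher and 20.0% lower. At an unadjusted p under 0.05 there were 5 of the 10, against 46.4% of all genes. The median log2 fold change was −0.15 for the 10 genes and 0.01 for all genes.

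Hspa5 read 873, 951 and 834 CPM with ATP, all above the highest scrambled library. Its log2 fold change against scrambled siRNA was 0.36 (SE 0.12, 95% interval 0.10 to 0.62, edgeR adjusted p = 0.0291). The call was lost without scrambled replicate 2 (log2 fold change 0.29, edgeR adjusted p = 0.0768) or replicate 3 (0.33, 0.073), and without ATP replicate 1 (0.37, 0.0671), replicate 2 (0.31, 0.129) or replicate 3 (0.41, 0.052). Over the alternatives the adjusted p of Hspa5 ran from 0.00132 to 0.129.

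Dnajb9 read 56.0, 47.7 and 54.4 CPM, also wholly above the scrambled libraries. Its log2 fold change was 0.66 (SE 0.14, 95% interval 0.36 to 0.95, edgeR adjusted p = 0.00174). The rise passed under all 17 alternative settings, with log2 fold changes from 0.56 to 0.88.

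Among the isomerases, Pdia6 read 464, 491 and 432 CPM with ATP, wholly below scrambled siRNA, with a log2 fold change of −0.58 (edgeR adjusted p = 0.00101). Pdia3 read 989, 1008 and 931 CPM, with a log2 fold change of −0.38 (edgeR adjusted p = 0.0218). Pdia4 read 363, 347 and 359 CPM, with a log2 fold change of −0.41 (edgeR adjusted p = 0.0149). All 3 isomerases were below every scrambled library. Scaling by total counts ended the calls of Pdia3 (−0.16, edgeR adjusted p = 0.308) and Pdia4 (−0.19, edgeR adjusted p = 0.232). Leaving out ATP replicate 1, 2 or 3 also ended the call of Pdia3 (edgeR adjusted p = 0.0615, 0.0599 and 0.104), and leaving out ATP replicate 2 or 3 that of Pdia4 (edgeR adjusted p = 0.0638 and 0.0532). Over the alternatives the adjusted p reached down to 0.000766 for Pdia3 and 0.002 for Pdia4.

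The other 5 genes did not pass. Hsp90b1 read 1349, 1362 and 1253 CPM with ATP (log2 fold change −0.25, edgeR adjusted p = 0.142), again wholly below the scrambled libraries, and passed in DESeq2 (adjusted p = 0.0478). Calr read 1889, 1893 and 1869 CPM (−0.27, edgeR adjusted p = 0.192), within the scrambled range, and passed without scrambled replicate 2 (−0.42, edgeR adjusted p = 0.0283). Dnajc3 read 75.5, 84.7 and 82.6 CPM (0.11, edgeR adjusted p = 0.485). All 3 Dnajc3 values lay inside the scrambled range, and total-count scaling gave 0.34 (edgeR adjusted p = 0.0268). Xbp1 read 113, 116 and 117 CPM (−0.06, edgeR adjusted p = 0.639), and total-count scaling turned its sign (0.16). Herpud1 read 54.4, 56.1 and 51.7 CPM (0.27, edgeR adjusted p = 0.221). Herpud1 passed without scrambled replicate 1 (0.50, edgeR adjusted p = 0.0159) and under total-count scaling (0.49, edgeR adjusted p = 0.0275).

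In all, 2 genes were wholly higher and 4 wholly lower than scrambled siRNA, where 24.7% and 24.1% of all tested genes were, 48.9% in all. Total-count scaling, which moved the median of all genes to 0.24, gave 4 of the 10 higher and 1 lower, in place of 2 and 3. The 1 lower was Pdia6. Without scrambled replicate 1, 3 were higher and 3 lower. Without scrambled replicate 2 there were 1 and 4, without scrambled replicate 3 there were 1 and 3, without ATP replicate 1 there were 1 and 2, and without ATP replicate 2 or 3 there were 1 and 1.

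**Figure D4:**
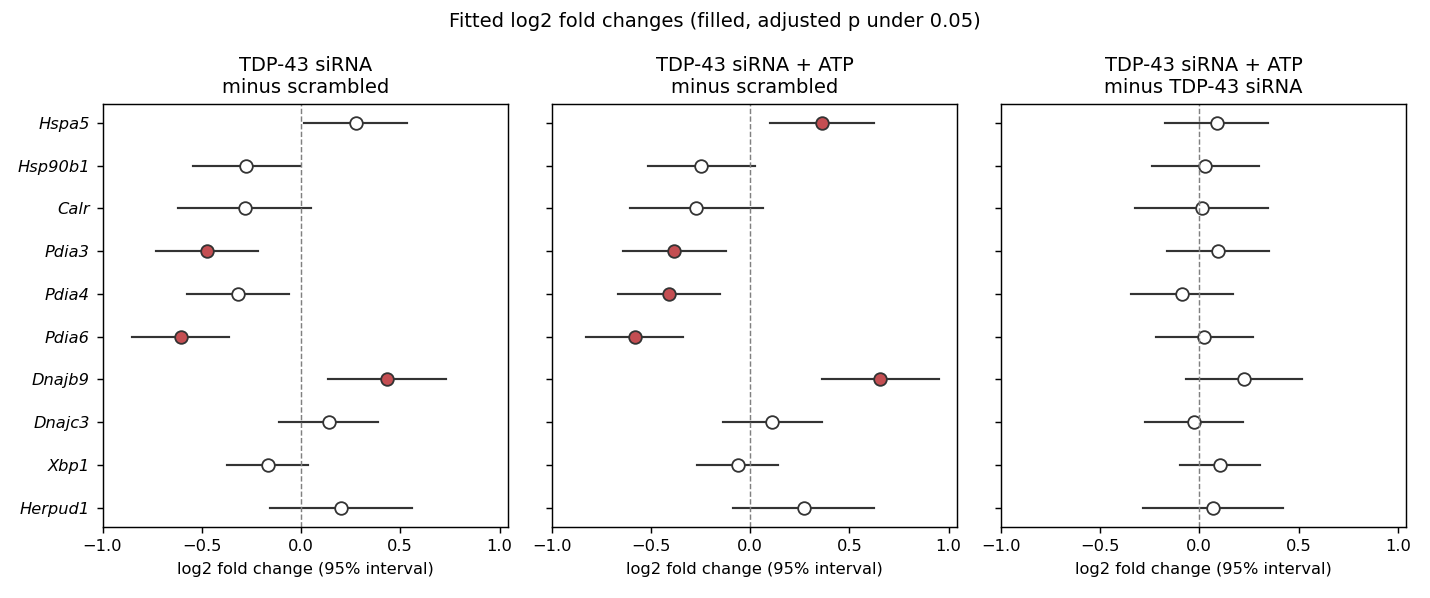
Log2 fold changes of the 10 ER genes with 95% intervals in each comparison, from edgeR. Pdia6 lies lowest in both comparisons with scrambled siRNA (−0.61 and −0.58), and the intervals of the ATP comparison all include 0.

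For ATP within knockdown cells, 0 of the 10 genes passed. At an unadjusted edgeR p under 0.05 there were also 0, and DESeq2 called 0. Of all tested genes 1.07% were called by edgeR, and 12.6% had an unadjusted p under 0.05. The spread in this fit came from all 3 groups, including the more variable scrambled libraries, so these shares and the intervals depend on them. Fitting only the compared libraries called 431 genes higher and 386 lower of 11936, against 112 and 17 of 12096, and still 0 of the 10. The log2 fold changes ran from −0.09 for Pdia4 to 0.22 for Dnajb9 (95% interval −0.07 to 0.52, edgeR adjusted p = 0.559). The intervals of all 10 lay between −0.35 and 0.52. That of Pdia6 ran from −0.22 to 0.27. Xbp1 alone did not overlap, each ATP library being above the highest knockdown value (log2 fold change 0.10, edgeR adjusted p = 0.741), where 25.8% of all genes did not overlap.

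The libraries with ATP also agreed more closely with each other. The median coefficient of variation of the 10 genes was 13.9% with scrambled siRNA, 5.56% after knockdown and 4.29% with ATP. Over 6028 genes above 30 CPM the medians were 12.5%, 7.75% and 5.32%. Together the 10 genes took 0.574% to 0.781% of the unscaled counts in scrambled libraries, 0.586% to 0.650% after knockdown and 0.647% to 0.685% with ATP. Their summed TMM-scaled CPM was 6425 to 8465, 5718 to 6293 and 5984 to 6356 in the same order, so this reading depends on the scaling.

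The other genes of the ER folding and stress machinery were read from 4 lists. Among 38 tested further chaperones and folding enzymes, 16 fell and 1 rose after knockdown, with a median log2 fold change of −0.25 against 0.01 over all genes. The share called was 44.7%, against 34.3% of all tested genes (18.2% lower, 16.2% higher). Under total-count scaling 9 fell and 5 rose. Without knockdown replicate 1, 10 fell, without scrambled replicate 1, 2 rose, and without knockdown replicate 2, 0 rose. P4hb, the founding member of the disulfide isomerase family and a subunit of collagen prolyl hydroxylase, read 1574, 1113 and 1247 CPM with scrambled siRNA and 631, 569 and 661 CPM after knockdown. Its log2 fold change was −1.08 (SE 0.14, edgeR adjusted p = 2.19e-05).

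The prolyl isomerase Fkbp9 fell most clearly in that list, with a log2 fold change of −1.75 (edgeR adjusted p = 1.95e-07). The transmembrane isomerase Tmx1 fell by 1.26 on the log2 scale, the calcium-binding Rcn3 by 1.17, the BiP nucleotide exchange factor Sil1 by 0.84 and Creld1 by 0.82. Dnajc10, a J-domain reductase, was the 1 that rose (log2 fold change 0.36, edgeR adjusted p = 0.0127). Canx, the membrane-bound partner of calreticulin, had a log2 fold change of −0.31 (edgeR adjusted p = 0.0838). The summed fibroblast, mural and endothelial markers moved in the same direction as these folding enzymes, and 6 of their 10 tested genes fell. Their part in the fall was not tested.

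Of 19 tested stress sensors and UPR regulators, 5 rose and 2 fell after knockdown, with a median of 0.26. That is 36.8% called, near the 34.3% of all tested genes. Ern1, which encodes IRE1, read 3.96, 6.83 and 6.62 CPM with scrambled siRNA and 11.1, 10.5 and 8.70 CPM after knockdown. All knockdown values were higher (log2 fold change 0.84, SE 0.22, edgeR adjusted p = 0.00826). Trib3, a pseudokinase induced downstream of ATF4 and CHOP, rose by 1.43 from a low level (1.84 ± 0.945 to 4.66 ± 0.931 CPM, SD, n = 3; edgeR adjusted p = 0.00528). Ppp1r15b, a subunit of the phosphatase that restores translation, rose by 0.43 (edgeR adjusted p = 0.00639). Atf6 rose by 0.32 and the apoptosis effector Bax by 0.29, both just under the threshold (edgeR adjusted p = 0.0453 and 0.0476).

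Creb3l2 and Creb3, which encode ER-anchored transcription factors, had log2 fold changes of −0.996 and −0.54 and passed (edgeR adjusted p = 7.23e-05 and 0.000562). Eif2ak3, Atf4 and Ddit3 of the PERK branch did not pass: Eif2ak3 had a log2 fold change of −0.10 (edgeR adjusted p = 0.573), Atf4 0.01 (adjusted p = 0.94) and Ddit3, which encodes CHOP, 0.35 (adjusted p = 0.0609). Ddit3 was higher in every knockdown library than in any scrambled one. Under total-count scaling 11 of the 19 rose and 2 fell. Leaving out any 1 of the 6 knockdown libraries, with or without ATP, left 3 that rose.

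Of 26 tested genes of ER-associated degradation, 5 rose (Derl3, Nploc4, Aup1, Edem3 and Sel1l) and 6 fell after knockdown. That is 42.3% called, against 34.3% of all tested genes (16.2% higher, 18.2% lower), with a median log2 fold change of −0.00315. The groups overlapped for Edem3 and Sel1l, and Sel1l passed narrowly (edgeR adjusted p = 0.0419). Derl3, a derlin of the retrotranslocation machinery, rose by 1.17 (SE 0.32, edgeR adjusted p = 0.00962). Its level was low, 4.24 ± 2.36 CPM with scrambled siRNA and 8.97 ± 1.69 CPM after knockdown (SD, n = 3). Vimp (selenoprotein S) fell by 0.52 (edgeR adjusted p = 0.00472). Total-count scaling gave 7 higher and 1 lower. Of 30 tested genes of translocation and signal peptide processing, 3 rose and 1 fell, or 13.3% called against the same 34.3%, with a median of −0.02. The 1 that fell was Srp9, a signal recognition particle subunit (log2 fold change −1.33, edgeR adjusted p = 1.48e-06), and the 3 that rose were Spcs2, Srp54a and Ssr1, each by 0.36 to 0.39. Total-count scaling gave 8 higher and 1 lower. Leaving out scrambled replicate 1 gave 7 higher and 6 lower in the translocation list. Leaving out knockdown replicate 1 left 3 higher and 1 lower in the degradation list, and leaving out knockdown replicate 2 left 3 higher. Leaving out any other library left 4 higher in that list.

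**Figure D5:**
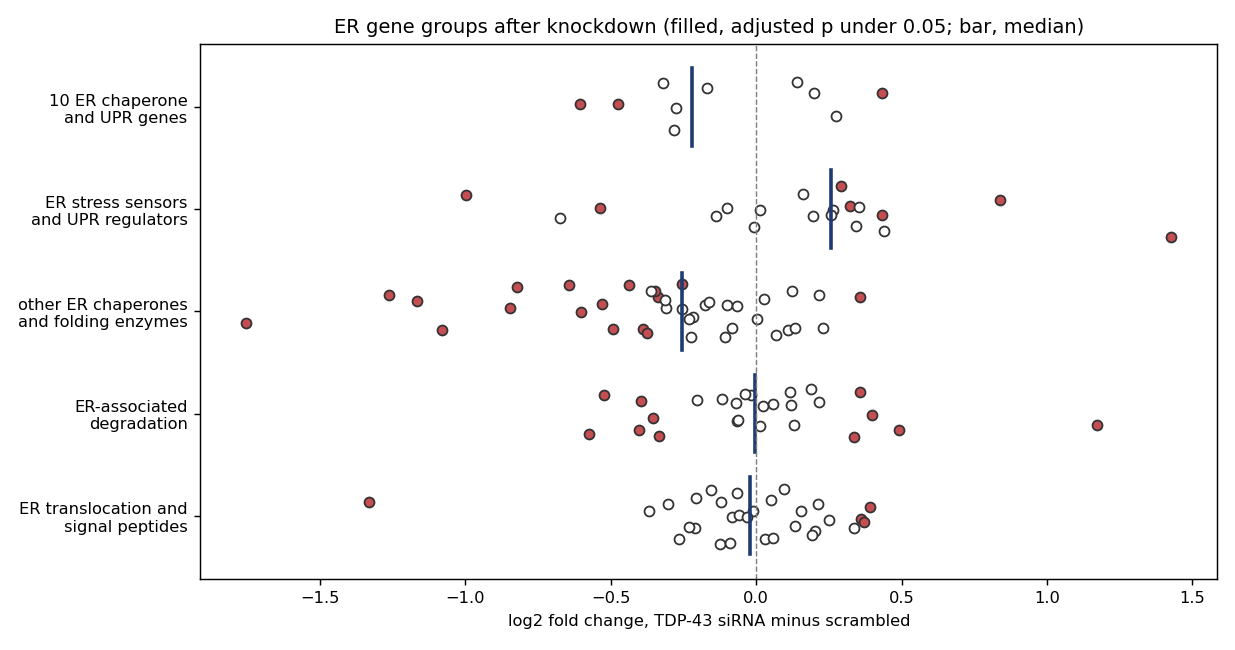
Log2 fold changes after TDP-43 knockdown for every tested gene of the 10 ER genes and of the 4 other ER lists (points), with list medians, from edgeR. The folding enzymes centre below 0 (median −0.25) and the sensors and regulators above it (0.26).

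With ATP and knockdown together against scrambled siRNA, 7 sensors and regulators rose and 2 fell, and 2 folding enzymes rose and 16 fell. In the degradation list 2 rose and 3 fell, and in the translocation list 4 rose and 6 fell. The share called was 47.4% for the sensors and for the folding enzymes, 19.2% for degradation and 33.3% for translocation, against 37.4% of all tested genes (17.4% higher, 20.0% lower). Ern1 read 11.6, 9.18 and 11.7 CPM (log2 fold change 0.94, edgeR adjusted p = 0.00339). The translocation list then included Sec61g (−0.90, edgeR adjusted p = 0.000234) and Sec61b (−0.60, edgeR adjusted p = 0.00394), small subunits of the translocon channel. Total-count scaling gave 12 and 2 for the sensors, 4 and 12 for the folding enzymes, 12 and 1 for degradation and 11 and 3 for translocation. Without scrambled replicate 1 the degradation list had 5 higher and the translocation list 7 higher and 9 lower. Leaving out any 1 ATP library left 1 higher in the degradation list and 1 higher among the folding enzymes, as did leaving out scrambled replicate 3 or knockdown replicate 1 for the folding enzymes, and the translocation list had 2 higher without ATP replicate 3.

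For ATP within knockdown cells, edgeR called 0 genes of the 4 lists. At an unadjusted p under 0.05 there were 2 sensors, 1 folding enzyme, 0 degradation genes and 3 translocation genes, and DESeq2 called 1 sensor and 1 translocation gene lower. Without scrambled replicate 1 edgeR called 1 sensor and 2 translocation genes lower. With only the compared libraries it called those numbers and 1 folding enzyme lower. Sec61g had a log2 fold change of −0.53 (edgeR adjusted p = 0.108).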

How the data were processed

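Poly(A) RNA-seq counts of 9 libraries in 3 groups were analysed, out of 21 libraries in 7 groups; the other libraries were not used here. The deposited table holds whole read counts per gene symbol, not normalized by the authors. Trimmomatic, TopHat2, Bowtie2, DESeq2 and build rn6 are named in the submitters' processing notes, without versions. The counting program, and whether it used strand, is not given in the sources used here. From 11485173 to 40286765 counts per library remained after 26 rows with symbols turned into dates were removed (0.286% to 0.331% of counts).

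All 9 libraries entered 1 edgeR 4.0.16 quasi-likelihood fit (R 4.3.3, filterByExpr, TMM scaling, 1 mean per group, Benjamini-Hochberg over 12096 genes, threshold 0.05). All 10 ER genes passed the low-count filter. Intervals are 95% from that fit; SE is the log2 fold change over the square root of F. The fit was tested on simulated data, where most of the smallest changes were missed and the share of false calls was above the threshold. Far fewer genes were changed there than were called in these data, so neither share carries over directly. DESeq2 1.42.0, other scalings, filters, the replicate block and leaving out each library were alternatives. No per-sample column of another series was present.

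The genes and lists were chosen with earlier results of these data known. Text genes were the 10, Tardbp, up to 6 genes of smallest adjusted p per list and comparison, and Ern1, Eif2ak3, Atf6, Atf4, Ddit3 and Canx. Bax, Dnajc10, Aup1, Edem3, Sel1l, Slc1a2 and the Hspa5 ratios were chosen after their values were seen. Astrocyte, microglia, oligodendrocyte, neuron and fibroblast marker lists were also read. Promoter sequences are RefSeq's (GRCr8), matched by symbol. Levels were not compared between genes, since no lengths were used.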

Additional observations from a re-analysis of the deposited data

How the results depend on the processing

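The 510 log2 fold changes of the 10 genes were recomputed under 17 alternatives. Of these, 476 kept their side of the threshold, 18 lost the call, 16 gained it and 0 called values reversed. Some uncalled values among the 476 changed sign. Herpud1 after knockdown was −0.01 without scrambled replicate 2, against 0.20, and Xbp1 with ATP was 0.16 under total-count scaling, against −0.06. Pdia6 fell under every alternative, by log2 −0.68 to −0.44 after knockdown and −0.66 to −0.36 with ATP. After knockdown 1 gene rose and 2 fell. Total-count scaling gave 3 and 1, DESeq2 2 and 4, and a fit of only the compared libraries 0 higher. Leaving out each library gave 0 to 3 higher and 2 to 4 lower. With ATP against scrambled siRNA, 2 rose and 3 fell. Total-count scaling gave 4 and 1. The fit of only the compared libraries gave 1 higher. Leaving out each library gave 1 to 3 higher and 1 to 4 lower. For ATP within knockdown cells the counts were 0 and 0 throughout. With the replicate number as a block, 1 gene was higher with ATP, as the Hspa5 call was lost (log2 0.37, edgeR adjusted p = 0.0547). The numbers share only a name: same-numbered deviations correlated at −0.23 to 0.16, 1 of 9 over 0.1, and 1 of 9 libraries correlated best with its own number. Over all genes total-count scaling gave 3427 higher and 1436 lower after knockdown, against 1956 and 2198, and 4099 and 1400 with ATP, against 2106 and 2415. The cause of these differences was not tested beyond the shift of the median. With 3 libraries a group, 95% intervals after knockdown ranged in width from that of Xbp1 (−0.37 to 0.04) to that of Herpud1 (−0.16 to 0.56).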

Other observations

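Grouped after their values were seen, the disulfide isomerase family across the lists had 15 genes, of which 14 were tested. After knockdown 8 fell (Pdia3, Pdia6, P4hb, Pdia5, Txndc5, Txndc12, Tmx1 and Erp29), 1 rose (Dnajc10), and the median log2 fold change was −0.40. Among all tested genes 18.2% were lower and 16.2% higher. Pdia3, Pdia4 and Pdia6 were already counted among the ER genes above. Of the 11 remaining tested genes of the family, 6 fell and 1 rose. Txndc12 passed narrowly (edgeR adjusted p = 0.0473). With ATP against scrambled siRNA 8 fell and 2 rose (Dnajc10 and Erp44), with a median of −0.39, where 20.0% of all tested genes were lower and 17.4% higher. Of the same 11 remaining genes, 5 fell and 2 rose. For ATP within knockdown cells 0 of the family passed. Txndc5 fell by 0.53 after knockdown (SE 0.12, edgeR adjusted p = 0.00342), Pdia5 by 0.65 (SE 0.20, edgeR adjusted p = 0.021) and Erp29 by 0.49 (SE 0.11, edgeR adjusted p = 0.00222). Tmx2 had a log2 fold change of 0.22 (edgeR adjusted p = 0.142), and Txndc11 and Tmx4 of −0.10 and −0.11.

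Among tested genes, 16 had an ERSE match, and 9 of these are among the 10 ER genes or the 4 ER lists: Calr, Canx, Creld2, Derl3, Dnajc3, Ero1b, Hsp90b1, Hspa5 and Xbp1. After knockdown 3 of the 16 rose (Derl3 from a low level, Zfand2a and Birc5) and Ankmy2 fell, with a median log2 fold change of −0.02. Of all tested genes 34.3% were called (16.2% higher, 18.2% lower). All 4 are among the 11 genes of the 16 that lie outside the 10 ER genes, and counts this small are a description. With ATP against scrambled siRNA 3 rose and 1 fell, with a median of 0.05, where 37.4% of all tested genes were called. Outside the 10 ER genes 2 rose and 1 fell. Zfand2a rose by 0.73 (edgeR adjusted p = 0.000506) and Ankmy2 fell by 0.79 (edgeR adjusted p = 0.000282) after knockdown.

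Ranked among 9421 genes over the 9 libraries, the genes whose log2 CPM was most like that of Hspa5 were Sf3b2, Wdr75, Adsl and Ttc9 (Pearson's r = 0.98 each), then Hn1l and Plcd1 (0.97). Those most like Pdia6 were Gas8, Nxn, Rcn3, Cers2, Them6 and Gde1 (0.99 each). Herpud1 ranked 802 and Dnajb9 1073 in likeness to Hspa5, and Pdia3 ranked 436, Hsp90b1 879 and Pdia4 1436 in likeness to Pdia6. The libraries share groups and scaling, so this is a description.

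Of the marker lists, 6 of 11 tested astrocyte genes fell after knockdown, 1 rose and 4 were not called. Among all tested genes 18.2% were lower and 16.2% higher. Aqp4 went from 898 to 998.8 CPM to 411 to 445 CPM. The 1 that rose was Slc1a2, from a mean of 8.33 to 35.1 CPM (log2 fold change 2.14, edgeR adjusted p = 1.93e-05). Microglia markers gave 0 higher and 3 lower of 12, oligodendrocyte markers 3 and 3 of 10, neuron markers 3 and 1 of 9, and fibroblast, mural and endothelial markers 0 and 6 of 10. The summed CPM of microglia markers was 430 to 486 with scrambled siRNA and 320 to 386 after knockdown.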
